A study of Sus scrofa with 3 samples.

Results

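Differentially methylated regions that were dense in CG sites were examined in pig liver. They were taken from the lists of regions that differed between breeds by selecting rows on chromosomes 1 to 18 with a length of at least 200 bp and at least 1 CG site per 10 bp. The rule used length, chromosome and the number of CG sites, but no methylation level. It kept 371 of 7325 autosomal regions (5.07%) for Enshi black pig versus Large White pig, 541 of 7829 (6.91%) for Enshi black pig versus Chinese wild boar, and 416 of 5434 (7.66%) for Large White pig versus Chinese wild boar. These 1328 rows, of 25044 listed on all chromosomes and scaffolds, covered 1048 distinct places.

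Liver of male pigs at postnatal day 90 had been bisulfite sequenced for 3 breeds, each with 1 methylome. These were Chinese wild boar, Large White pig, which is of European origin, and Enshi black pig, which is Chinese. The labels mention 3 pigs without saying whether their DNA was combined. The columns of levels carry numbers and no breed name, so each was assigned to a breed by the sequence in which the name of its table lists the breed codes. In the labels, the table for Enshi black pig and Chinese wild boar is attached to the sample of Large White pig, and the table for Large White pig versus Chinese wild boar to the sample of Chinese wild boar. Read depth is unknown, and no test between breeds was possible without replicates. All regions were listed because 2 breeds differed there, so the presence of a difference was fixed by the selection and its error could not be estimated.

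CpG islands are stretches of vertebrate genomes in which CG sites remain dense, whereas most of the genome has lost them by deamination of methylated cytosine. Islands lie at many promoters and are usually free of methylation in normal tissue, with known exceptions at imprinted genes, on the inactive X chromosome and at promoters of germline genes. Islands within gene bodies and between genes more often carry methylation that varies between cell types.

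The selected regions were CG-dense by the listed counts alone. Base composition and the ratio of observed to expected CG sites, which usual definitions of an island require, were not analysed here. The median region was 336 bp long with 45 CG sites for Enshi black pig versus Large White pig, 337 bp with 46 CG sites for Enshi black pig versus Chinese wild boar, and 341 bp with 44 CG sites for Large White pig versus Chinese wild boar. The other listed autosomal regions of at least 200 bp had medians of 11, 12 and 12 CG sites. Density was 12.5, 12.9 and 12.4 CG sites per 100 bp at the median and reached 22.2, 21.7 and 22.9. Just inside the density limit lay chr4:131453301-131453560, with 26 CG sites in 260 bp, where Enshi black pig was at 37.7% and Large White pig at 60.3%. Just outside lay chr14:143758116-143758769, with 65 CG sites in 654 bp, where these breeds were at 74.5% and 39.7%. The length limit left out 766, 892 and 772 autosomal regions that met the density limit but were shorter than 200 bp.

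CG-dense regions were partly methylated in every breed. Over the regions of each comparison, the median level of Enshi black pig was 51.9% beside Large White pig and 52.3% beside Chinese wild boar. Large White pig had medians of 53.8% beside Enshi black pig and 54.0% beside Chinese wild boar. For Chinese wild boar the medians were 54.9% beside Enshi black pig and 53.4% beside Large White pig. Thus the 6 medians lay within a few points of each other, and each level had no replicate error. Levels under 20% were found in 2.40% to 6.25% of the regions, depending on breed and comparison, and levels over 80% in 10.7% to 12.9%.

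The spread around the medians was wider in Chinese wild boar. Its middle 50% of regions spanned 36.7 points beside Enshi black pig, which spanned 22.9 points in the same regions. Beside Large White pig it spanned 35.1 points, against 24.3 points for Large White pig. Between both other breeds the spans were 29.4 points for Enshi black pig and 30.8 points for Large White pig. Levels from 40% to 60% were held by 43.8% of regions in Enshi black pig but 25.5% in Chinese wild boar, and by 42.8% in Large White pig but 26.9% in Chinese wild boar. For Enshi black pig versus Large White pig the shares were 34.5% and 32.1%. Measured as the distance of a level from 50%, Chinese wild boar was the farther breed in 329 of 541 regions (60.8%) beside Enshi black pig and in 256 of 416 (61.5%) beside Large White pig. The farther breed was Large White pig in 195 of 371 (52.6%) beside Enshi black pig. All listed autosomal regions had the wider spread as well, with quartiles of 45.7% and 91.1% in Chinese wild boar against 46.0% and 81.1% in Enshi black pig, and of 44.6% and 88.6% in Chinese wild boar against 46.4% and 85.7% in Large White pig. The wider spread of Chinese wild boar was seen in the same single methylome in both comparisons, so it has no independent repeat.

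**Figure D1:**
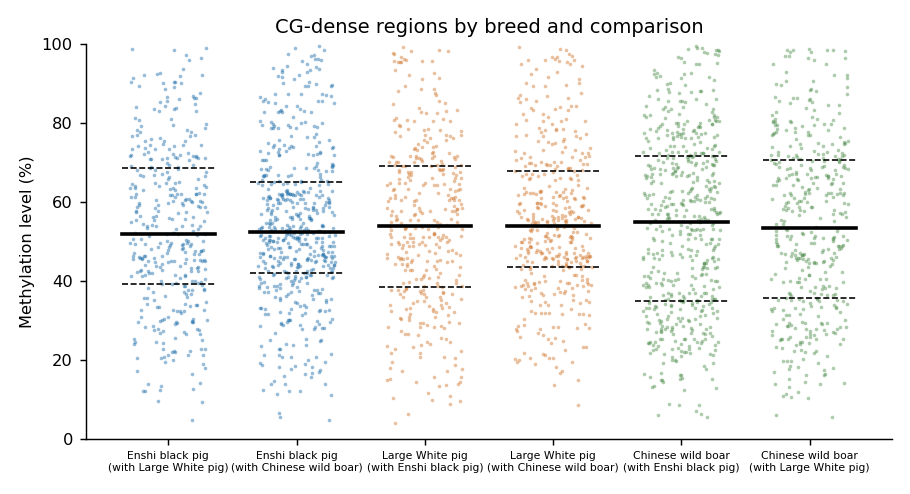
Methylation level (%) of each CG-dense region (points) by breed, with the breed it was compared with in brackets. Solid lines mark the medians, from 51.9% to 54.9%, and dashed lines the quartiles, which lie farthest apart in Chinese wild boar.

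Between both breeds of a comparison, the higher level was intermediate in most CG-dense regions. The median of the higher level was 66.6% for Enshi black pig versus Large White pig, 66.5% for Enshi black pig versus Chinese wild boar, and 68.0% for Large White pig versus Chinese wild boar. The medians of the lower level were 41.3%, 40.6% and 41.4% in the same order. Both breeds lay between 20% and 80% in 251 of 371 regions (67.7%), 360 of 541 (66.5%) and 280 of 416 (67.3%). These shares were 26.1%, 29.7% and 28.8% among all listed autosomal regions. With 30 to 59 CG sites they were 69.1%, 68.1% and 68.1% in CG-dense regions. Other regions of at least 200 bp had 51.7%, 55.8% and 55.8% at these numbers of sites. A switch from a level under 20% in one breed to over 80% in the other was rare, with 1, 1 and 0 regions. It was also rare among all listed autosomal regions, at 2.53%, 2.12% and 2.59%. No CG-dense region, and no other listed autosomal region, had both breeds under 20%, the state usual for islands. Such a region could enter the lists only through a small difference. The median difference was 23.1, 23.4 and 24.0 points, and 12, 13 and 8 regions (3.23%, 2.40% and 1.92%) differed by at least 50 points. Among all listed autosomal regions, 17.2%, 15.9% and 17.6% differed by that much.

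**Figure D2:**
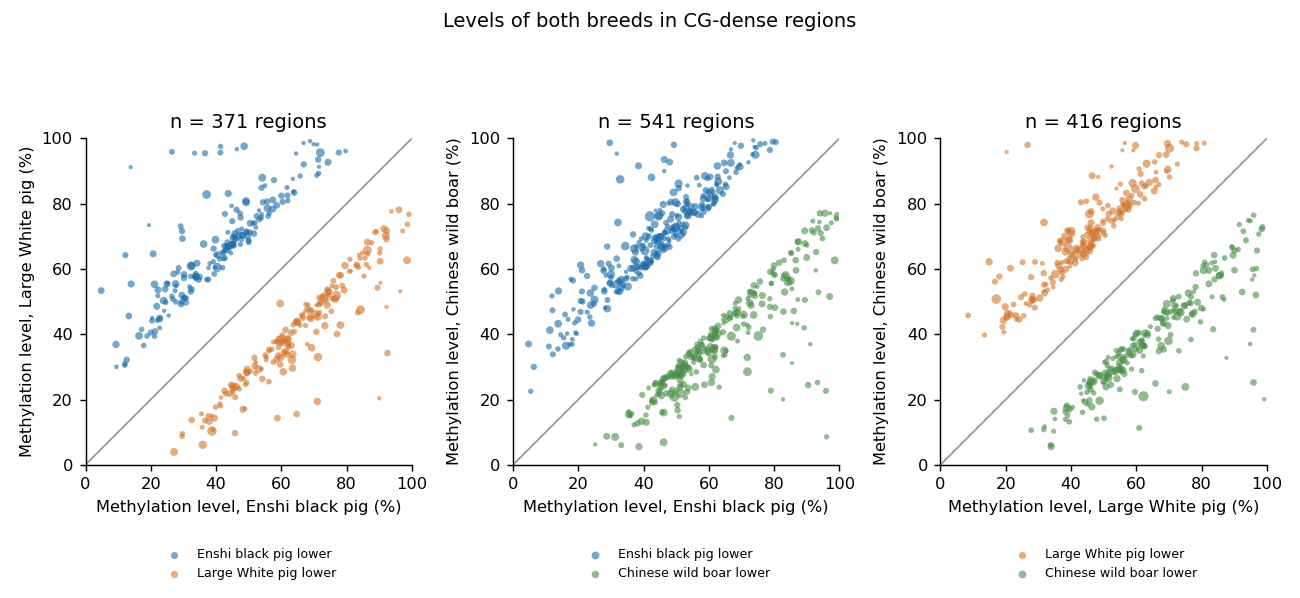
Level in the first breed (x axis, %) against level in the second breed (y axis, %) for 371, 541 and 416 CG-dense regions. Point area grows with the number of CG sites, colour gives the lower breed, and the grey line marks equal levels. The empty band along the line holds regions that were not listed, and few points reach the upper left or lower right corner.

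Other listed autosomal regions of at least 200 bp held higher levels. Their higher breed had medians of 88.6%, 87.9% and 87.5%, and their lower breed 47.7%, 47.3% and 45.8%. The higher breed exceeded 90% in 44.7%, 43.5% and 42.1% of them, but in 38 of 371, 52 of 541 (9.61%) and 44 of 416 (10.6%) CG-dense regions. Their median differences of 36.8, 35.8 and 38.3 points were also wider. The number of CG sites moved with this contrast. Among regions with 30 to 59 CG sites, the higher breed had medians of 66.1%, 63.7% and 68.1% in 236, 345 and 276 CG-dense regions, and of 74.7%, 73.6% and 73.6% in 172, 217 and 129 other regions. The gap was therefore smaller at like numbers of CG sites, and median differences there were 22.5, 22.8 and 23.6 points in CG-dense regions against 27.2, 28.1 and 27.6 points in the others. The part that the number of CG sites had in the difference between both kinds of region was not tested.

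Levels fell near the density limit and changed less beyond it. With 8 to 10 CG sites per 100 bp, the higher breed had medians of 88.3%, 82.2% and 86.5%. With 10 to 12 sites the medians were 67.6%, 68.7% and 71.3%, and with at least 16 sites 67.7%, 65.2% and 64.2%. The lower breed had 52.1%, 48.8% and 50.3% with 8 to 10 sites and 42.4%, 40.6% and 43.2% with 10 to 12 sites. The median number of CG sites per region rose at the same step, from 22, 24 and 23 to 36, 38 and 39. Its part in the fall was not tested. A run of listed regions of one length lay just below the limit. Over the 3 comparisons, 927 autosomal regions were 210 to 219 bp long, compared with 501 of 200 to 209 bp and 487 of 220 to 229 bp, and 287 were exactly 218 bp long. In those of 218 bp, the median number of CG sites was 18, 17 and 18, and the median of the higher level was 94.0%, 95.7% and 95.5%. Only 14 of the 287 met the density limit. Without lengths of 210 to 219 bp, the higher breed had medians of 66.3%, 66.3% and 67.2% in CG-dense regions and of 83.0%, 79.3% and 81.9% in other regions with at least 20 CG sites. What the regions of 218 bp have in common apart from length was not tested.

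**Figure D3:**
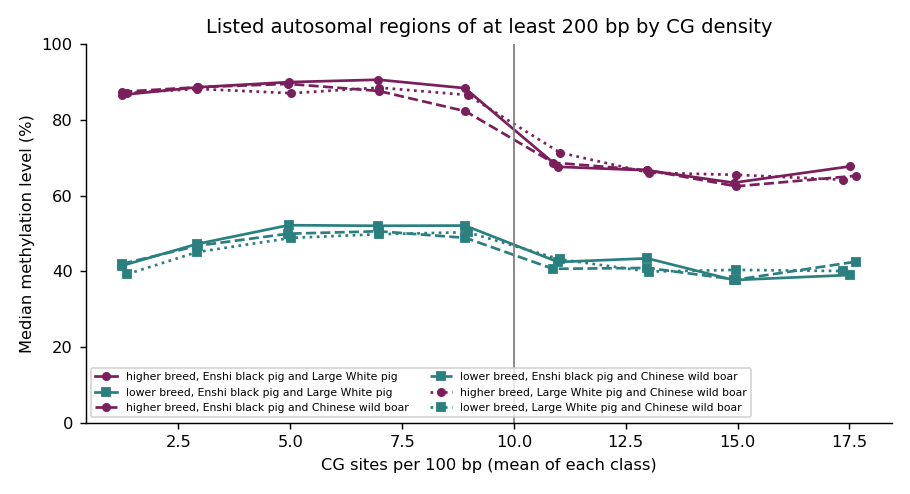
Median methylation level (%) of the higher breed (purple circles) and of the lower breed (green squares) against CG sites per 100 bp, in listed autosomal regions of at least 200 bp grouped by density. Line styles give the comparison and the grey line the limit of the CG-dense regions, where the higher breed steps from medians of 82.2% to 88.3% to medians of 67.6% to 71.3%. The median number of CG sites per region rises at the same step.

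Neither breed was the lower one in most CG-dense regions. The level of Enshi black pig was below that of Large White pig in 184 of 371 regions (49.6%), against 54.4% of all listed autosomal regions. It was below Chinese wild boar in 273 of 541 (50.5%), against 54.9% of all. Large White pig fell below Chinese wild boar in 200 of 416 (48.1%), against 51.0% of all. Among all listed regions of at least 200 bp, the shares were 55.5%, 57.5% and 52.8%. The CG-dense shares were below both of these sets in each comparison. Other listed autosomal regions of at least 200 bp with at least 20 CG sites had 49.6%, 51.1% and 51.4%, near the CG-dense shares. The CG-dense shares also moved with the size of the regions and of the difference. Regions with under 30 CG sites had 55.6%, 55.2% and 46.9%, from 54, 67 and 49 regions, and those with 60 or more had 49.4%, 55.0% and 50.5%, from 81, 129 and 91 regions. Among the 63 CG-dense regions with a difference of at least 30 points, Enshi black pig was below Large White pig in 60.3%. With 1 methylome per breed these shares describe the listed regions and give no estimate for the breeds.

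The regions with the most CG sites showed both directions. The largest, chr18:54978573-54979579, held 132 CG sites in 1007 bp, with Enshi black pig at 42.0% and Chinese wild boar at 76.1%. An overlapping region with 94 CG sites had Large White pig at 45.6% and Chinese wild boar at 76.8%, so that Chinese wild boar was the higher breed in both. At chr12:20633853-20634555, with 125 CG sites, Large White pig was at 62.2% and Chinese wild boar at 21.0%. Enshi black pig, listed over 636 bp of the same stretch with 120 CG sites, was at 49.5% against 20.8% in Chinese wild boar. Here Chinese wild boar was the lower breed beside both others. At chr17:66352598-66353317, with 109 CG sites, Enshi black pig was at 38.7% and Large White pig at 10.3%. Chinese wild boar was also lower than Enshi black pig there, in regions with 79 and 49 CG sites, at 8.55% against 31.3% and at 18.3% against 50.3%.

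A pair of regions on chromosome 4 had 115 CG sites each for Large White pig versus Chinese wild boar. At chr4:10385517-10386178 they were at 39.0% and 66.5%, and Enshi black pig was at 47.2% against 71.6% in Chinese wild boar over 428 bp of it. At chr4:118542330-118543097 they were at 17.1% and 50.8%. The lower breed beside Enshi black pig was Large White pig there too, at 13.7% against 32.5% over 327 bp. Of the remaining regions with the most CG sites for Enshi black pig versus Large White pig, chr4:83434183-83434960 had 106 sites at 76.9% and 51.9%, and chr18:52660993-52661638 had 103 sites at 40.4% and 60.5%. At the latter, Chinese wild boar was at 65.6% beside Enshi black pig at 40.4%. None of the regions with the most CG sites combined a level over 80% in one breed with a level under 20% in the other.

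The regions chosen for the widest differences held 22 to 57 CG sites, fewer than those chosen for the most CG sites. Over all CG-dense regions, median differences were 25.2, 25.2 and 25.1 points with 60 or more CG sites. They were 22.5, 22.8 and 23.6 points with 30 to 59 sites and 23.3, 23.6 and 24.0 points with under 30. At chr17:31315759-31316115, with 36 CG sites, Enshi black pig was at 96.1% and Chinese wild boar at 8.57%, a difference of 87.5 points. All 36 sites were listed singly there, with levels from 95.8% to 96.7% in Enshi black pig and from 6.97% to 11.2% in Chinese wild boar. Levels of sites are possibly smoothed over neighbours, so these sites may not be separate measurements of the difference. This region had no overlapping listed region with Large White pig. At chr12:45511248-45511474, with 24 CG sites, Large White pig was at 99.2% and Chinese wild boar at 20.1%, while Enshi black pig was at 82.7% in its comparison with Chinese wild boar. The level of Chinese wild boar was thus the low one in both comparisons. At chr11:70631055-70631258, with 22 CG sites, Enshi black pig was at 13.8% and Large White pig at 91.2%, a difference of 77.3 points.

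At chr1:277650879-277651098, with 23 CG sites, Large White pig stood apart. It was at 20.3% in both of its comparisons, with Enshi black pig at 90.0% and Chinese wild boar at 95.8%. All 23 sites carried one single level per breed there, as smoothing over neighbours can give. Listed levels that were equal within 0.01 points were found in 4 of 73, 5 of 121 and 4 of 90 CG-dense regions with at least 5 listed sites, all of 25 CG sites or fewer. Among them were chr12:45511248-45511474 for Large White pig versus Chinese wild boar and chr9:45930114-45930342 for Enshi black pig versus Chinese wild boar. At chr6:77579710-77580071, with 51 CG sites, Large White pig was at 26.7% and Chinese wild boar at 98.0%, and Enshi black pig was between them at 49.3% beside Chinese wild boar at 98.0%. At chr17:13729862-13730242, with 44 CG sites, Large White pig was at 95.9%, Enshi black pig at 26.5% and Chinese wild boar at 41.4%. The other regions chosen for width were chr3:61149499-61149882 (Enshi black pig 92.5%, Large White pig 34.2%), chr10:28337177-28337465 (Enshi black pig 95.9%, Chinese wild boar 22.6%), chr9:45930114-45930342 (Enshi black pig 31.8%, Chinese wild boar 95.3%) and chr11:4321190-4321595 (Large White pig 95.9%, Chinese wild boar 25.2%).

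CG-dense regions could recur between comparisons, which share 1 methylome with each other, so recurrence is no separate support for a difference. A listed region of at least one of the other comparisons overlapped 263 of 371 CG-dense regions for Enshi black pig versus Large White pig (70.9%). The counts were 341 of 541 (63.0%) for Enshi black pig versus Chinese wild boar and 287 of 416 (69.0%) for Large White pig versus Chinese wild boar. Of the other listed regions of at least 200 bp, 49.0%, 51.5% and 55.0% were overlapped in this way. With 30 to 59 CG sites, the shares of other regions were 63.4%, 68.7% and 75.2%. They lay below the CG-dense share for Enshi black pig versus Large White pig and above it in both comparisons with Chinese wild boar. The CG-dense shares were not limited to 30 to 59 CG sites, so the numbers of sites were matched on one side only. Where CG-dense regions of 2 comparisons overlapped, the shared breed had like levels in both tables. The median absolute difference was 1.42 points for Enshi black pig over 99 pairs, 1.33 points for Large White pig over 68 pairs and 0.992 points for Chinese wild boar over 119 pairs. With the columns of one table exchanged, the medians were 24.9, 24.0 and 26.4 points. With the columns of both tables exchanged they were 4.22, 4.59 and 3.79 points, so a reversal of every table was told apart less sharply. The order of breeds within the tables was therefore the same in all of them, although the names of the breeds still rest on the names of the tables.

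Of the 1048 places, 777 held CG-dense regions of 1 comparison, 263 of exactly 2 and 8 of all 3. In a place of exactly 2, the breed common to both comparisons differed from both others. That breed was Chinese wild boar in 112 places, Enshi black pig in 90 and Large White pig in 61. Chinese wild boar was lower than both others in 62 and higher in 49, Enshi black pig was lower in 53 and higher in 37, and Large White pig was lower in 34 and higher in 27. Low levels of the common breed were the more frequent in each breed, in 149 places against 113. Over all listed autosomal regions, Enshi black pig was the lower breed in 54.4% beside Large White pig and in 54.9% beside Chinese wild boar. Large White pig was the lower one in 51.0% beside Chinese wild boar. Directions at shared places were not counted for other listed regions, so these counts show no trait particular to CG-dense places. The other breeds, compared across tables, differed by a median of 3.50 points at places of Chinese wild boar, 3.86 points at those of Enshi black pig and 4.05 points at those of Large White pig. These places held no CG-dense region between the other breeds, so a small difference there was largely fixed by the selection.

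In the remaining place, Chinese wild boar lay between the others. At chr12:42239866-42240341, chosen after its values were seen, Large White pig was at 96.6% and Chinese wild boar at 52.0% over 57 CG sites. Enshi black pig was at 11.9% and Chinese wild boar at 51.7% over 34 of the sites. The pair of Enshi black pig and Large White pig was listed there as well, at 24.6% and 76.8% over a stretch of 1177 bp with 99 CG sites. This longer region had 8.41 CG sites per 100 bp and so was not among the CG-dense ones. On the adjoining side, over chr12:42239210-42239868 with 64 CG sites, Enshi black pig was at 31.9% and Chinese wild boar at 77.8%, so Chinese wild boar was not intermediate along the whole stretch.

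At 8 places, overlaps joined CG-dense regions of all 3 comparisons, so each breed differed from both others somewhere in the stretch. On chromosomes 6 and 14 the regions formed a chain in which not every pair shared a base. The 6 of these with the most CG sites are described. At chr15:149123446-149123766, with 56 CG sites, the breeds formed 3 steps over the same stretch. Enshi black pig was at 29.7% in both of its comparisons, Large White pig was at 69.3% and 69.5%, and Chinese wild boar was at 98.7% and 98.4%. The levels of each breed thus differed between tables by far less than the steps between breeds.

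On chromosome 6, between 43999544 and 44000164, Large White pig was the high breed at 82.8% and 86.4%, and Enshi black pig was low at 37.1% and 32.4%. Chinese wild boar had levels between theirs, but in separate parts of the stretch. It was at 51.4% beside Large White pig over chr6:43999609-43999865 and at 61.0% beside Enshi black pig over chr6:43999931-44000164. On chromosome 5, between 23227199 and 23227805, the order was Chinese wild boar (62.2% and 63.2%), Enshi black pig (44.2% and 31.8%) and Large White pig (21.8% and 14.9%). Both comparisons with Chinese wild boar had it as the higher breed there. On chromosome 3, between 98539121 and 98539853, Chinese wild boar was low at 14.3% and 23.9%, with Large White pig at 75.1% and 66.1% and Enshi black pig at 66.9% and 43.2%. A breed thus had unequal levels in its comparisons at these stretches, where the regions of the comparisons had different limits.

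The remaining places lay in larger stretches. On chromosome 10, between 29290030 and 29290984, Enshi black pig was the high breed, at 75.1% beside Chinese wild boar at 39.4% and at 63.2% beside Large White pig at 32.1%. Large White pig was at 66.6% beside Chinese wild boar at 45.2% over another 242 bp, and so changed from high to low along the stretch. On chromosome 14, between 46128158 and 46129200, Enshi black pig was at 69.3% beside Large White pig at 35.9% and at 61.0% beside Chinese wild boar at 32.4%. Large White pig was at 51.4% and Chinese wild boar at 27.8% in a region of 512 bp. This region shared no base with the one for Enshi black pig versus Large White pig.

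**Figure D4:**
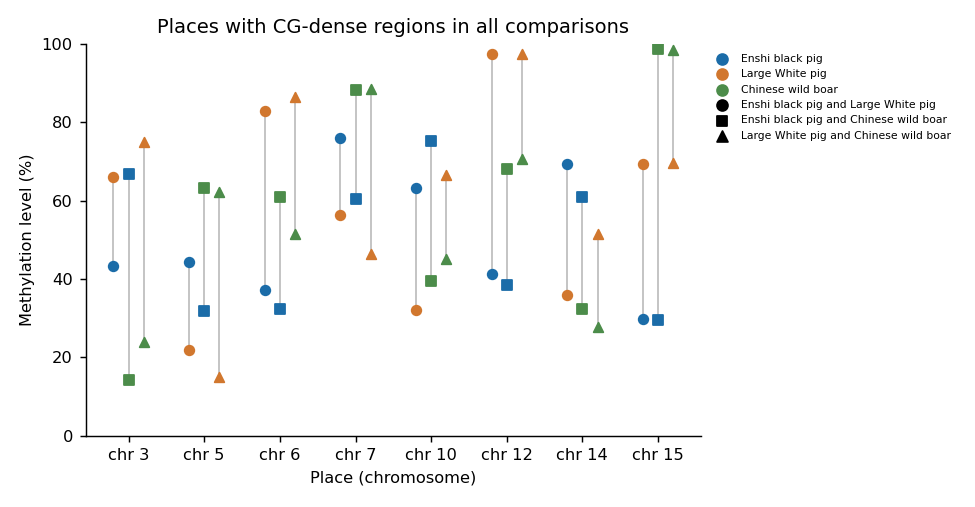
Methylation level (%) of each breed (colour) at the 8 places where overlaps join CG-dense regions of all comparisons, named by chromosome. Each grey line joins both breeds of 1 comparison (marker shape), and a breed appears at the same height in both of its comparisons on chromosome 15 but not on chromosome 3.

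Gene models could be set beside the regions for a stretch of the genome only, mostly on chromosome 1, because the parts of the transcript lists used here end there. The search covered 2024 loci on chromosome 1, and 53 loci had a symbol. Of 98 CG-dense rows on chromosome 1, only 9 lay at a locus searched. Within that stretch, the 2 kb upstream, first exon or body of 6 named genes overlapped a CG-dense region. A region with 55 CG sites, chr1:268130-268477, covered the first exon of FAM120B, which encodes a coactivator of the nuclear receptor PPARG. Enshi black pig was at 44.3% and Chinese wild boar at 63.7% there. A region of 207 bp with 24 CG sites spanned the start of RNF152, the gene of a lysosomal ubiquitin ligase, with Large White pig at 84.2% and Chinese wild boar at 62.2%. Between these breeds, only Large White pig was over 80%, and no level of Enshi black pig was listed at this gene start.

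Upstream of PPP1R14C, which encodes an inhibitor of protein phosphatase 1, the CG-dense regions of 2 comparisons overlapped. The higher breed was Large White pig in both, at 63.0% against 41.1% in Enshi black pig and at 62.3% against 36.3% in Chinese wild boar. Upstream of TAB2, which encodes an adaptor of the kinase TAK1, a region with 69 CG sites in 501 bp had Enshi black pig at 59.8% and Large White pig at 32.8%. Next to it, both regions with Chinese wild boar across the first exon stayed outside the CG-dense ones, with 9.47 and 9.68 CG sites per 100 bp. Chinese wild boar was the higher breed in these, at 95.2% against 61.7% in Enshi black pig and at 90.9% against 43.5% in Large White pig. Short regions upstream had the opposite direction, with Enshi black pig at 57.5% and Chinese wild boar at 37.2% over 17 CG sites. The level of Chinese wild boar therefore changed steeply between the first exon and the upstream side.

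Within the body of the locus that these models name SRP14, which encodes a subunit of the signal recognition particle, a CG-dense region with 79 CG sites had Enshi black pig at 73.3% and Large White pig at 51.2%. An overlapping region with 40 CG sites had Enshi black pig at 72.6% and Chinese wild boar at 52.0%. Enshi black pig was the higher breed by 22.1 and 20.6 points. At ACTA1 on chromosome 14, the gene of skeletal muscle alpha-actin, a region with 33 CG sites had Enshi black pig at 42.5% and Large White pig at 65.5%. Large White pig was at 67.3% beside Chinese wild boar at 47.0% in an overlapping region of 84 bp. Loci without a name accounted for the rest. Near the start of one of them, a region with 69 CG sites had Enshi black pig at 23.8% and Chinese wild boar at 48.9%. Gene expression was not analysed here, so no level was set beside a transcript amount.

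CG-dense regions were unevenly spread over the chromosomes. They made up 10.5% of the listed regions of chromosome 12 (106 of 1006 rows over the comparisons), 8.71% of chromosome 6 and 2.94% of chromosome 16 (18 of 613). Counted as places, chromosome 12 had 12.5 per 10 Mb up to its last listed position, chromosome 6 had 6.85, and chromosome 13 had 1.92. Chromosome 12 had the highest share for Enshi black pig versus Chinese wild boar (12.2%) and for Large White pig versus Chinese wild boar (12.2%), whereas chromosome 5 did for Enshi black pig versus Large White pig (7.49%). The regions also lay toward the ends of the chromosomes. Within 5 Mb of the first base or the last listed position lay 81 of 371 (21.8%), 109 of 541 (20.1%) and 83 of 416 of them, and 12.9%, 13.5% and 14.9% of other listed regions of at least 200 bp. The number of CG sites per chromosome was not used here, so a share of all CG-dense sequence could not be given.

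**Figure D5:**
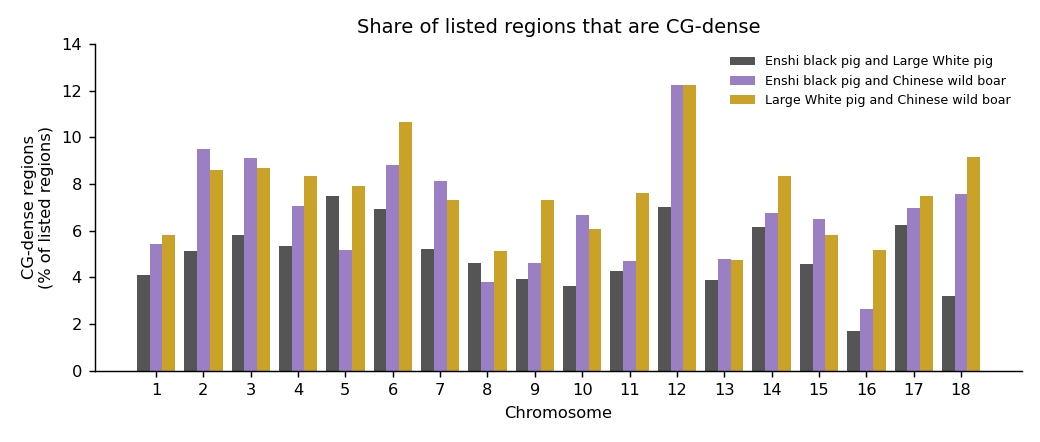
Share of listed regions that were CG-dense (%) by chromosome, with a bar for each comparison. Chromosome 12 reaches 12.2% in both comparisons with Chinese wild boar, and chromosome 16 is lowest for Enshi black pig versus Large White pig.

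The lists of single CG sites covered only some of the CG-dense regions. At least 1 listed site fell in 86 of 371 regions (23.2%), 152 of 541 (28.1%) and 115 of 416 (27.6%). These shares were not counted for other listed regions. Regions with a listed site had wider median differences, of 31.7, 31.6 and 31.5 points, than regions without one, of 22.2, 21.8 and 22.8 points. Sites were listed because the breeds differed there, so this contrast was largely fixed by the listing. The authors' standard error of the difference at a site had medians of 3.05, 2.98 and 3.04 points inside CG-dense regions and of 7.26, 7.12 and 7.60 points at the other listed autosomal sites. This error belongs to the authors' model of 2 methylomes and holds no variation between animals. Within a region, listed levels of a breed ranged over 5.98, 6.19 and 6.86 points at the median, and over up to 40.7, 47.0 and 47.4 points. The region with 132 CG sites on chromosome 18 was one of the uneven ones, since its 71 listed sites ran from 11.9% to 56.3% in Enshi black pig and from 50.9% to 93.4% in Chinese wild boar.

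Few CG-dense regions had a listed neighbour. Within 2 kb, another listed region of the same comparison lay beside 31 of 371, 55 of 541 and 58 of 416 (13.9%) of them. Of these neighbours, 20 had the same direction and 13 the opposite one for Enshi black pig versus Large White pig. The counts were 48 and 13 for Enshi black pig versus Chinese wild boar, and 46 and 20 for Large White pig versus Chinese wild boar. Neighbours with the same direction were the more frequent in each comparison, and those with the opposite direction show that the order of breeds could turn within a short distance. Neighbours of the other listed regions were not counted, so neither count shows a trait particular to CG-dense regions.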

How the data were processed

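Bisulfite sequencing of liver from 3 breeds, 1 methylome each, was analysed from the deposited lists of regions and CG sites that differed. Bismark 0.15.0 and the build Sscrofa10.2 are named in the processing notes of the submitters. The sources used here do not give the software that called the differences or its thresholds. For each region and site, the authors deposited a methylation level per breed as a fraction, possibly smoothed over neighbours, printed here as percent. The standard error of a site's difference, a score of the authors' model, was also deposited. The authors' own columns of differences, statistics, p-values, false discovery rates and posterior probabilities were not used. Read counts were not used here, so depth is unknown.

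Regions were filtered by length, CG sites per bp and chromosome, and described by counts, shares and medians with Python 3.11.15, numpy 2.4.6, pandas 2.3.3, scipy 1.17.1 and matplotlib 3.10.9. Overlap meant at least 1 bp, and overlapping CG-dense regions were merged into places. The steps were checked on simulated data. Members, lists and rules were chosen with earlier results of these data known. Regions named were the 3 with the most CG sites and the 2 widest differences in each direction per comparison, up to 6 places in all comparisons, those nearest the limits, and those at gene models of the study's transcript lists (2 kb upstream, first exon or body). No sequence is shown, since no genome of this build was used.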

Additional observations from a re-analysis of the deposited data

How the results depend on the processing

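Direction, median levels, recurrence and agreement between tables were recomputed under other settings, which gave 66 values, of which 55 moved by less than the 95% exact binomial interval of the main value (for medians, the matching interval of order statistics). Such intervals count regions and hold no error between pigs. With a limit of 0.08 CG sites per bp, the medians for Enshi black pig versus Large White pig rose to 59.6% and 57.6%, that of Enshi black pig beside Chinese wild boar to 56.5%, and that of Large White pig beside Chinese wild boar to 56.3%. With differences of at least 30 points, the level of Enshi black pig was below that of Large White pig in 60.3% of 63 regions, with medians of 48.6% and 58.5%. Chinese wild boar beside Enshi black pig had 51.7% and Large White pig beside Chinese wild boar 59.6% at this limit. From the mean of listed sites, Enshi black pig beside Large White pig had 46.3% and Large White pig beside Chinese wild boar 59.2%. This setting changed both the regions, to those with listed sites, and the value. The cause of these shifts was not tested. A limit of 0.12, a length of 300 bp, weighting by CG sites, an overlap of 0.5 of the shorter region and, chosen after seeing the data, leaving out lengths of 210 to 219 bp moved no value beyond its interval. No paired analysis was possible because there was 1 methylome for each breed.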

Other observations

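Outside the autosomes, the same limits of length and density kept 44 of 704 listed regions of the X chromosome for Enshi black pig versus Large White pig, 39 of 694 for Enshi black pig versus Chinese wild boar, and 37 of 713 for Large White pig versus Chinese wild boar. The median of the higher level on X was 69.5%, 65.9% and 67.9%, and that of the lower level 43.9%, 42.6% and 37.9%. Unplaced scaffolds held 7, 6 and 3 such regions. The listed regions of the Y chromosome, 4, 8 and 5 in number, held none.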
